A study of Arabidopsis thaliana with 31 samples.

Results

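Some genes of Arabidopsis lie tail to tail, with their 3′-ends pointing at each other, so that the last part of one mRNA is complementary to the last part of the next. The members described here are the genes under whose name such reads of the opposite strand were listed. They were selected on 1 measured value: a gene was a member when at least 10 poly(A)-seq reads aligned to the minus strand of its transcripts. Such reads are called antisense-listed below, and reads on the plus strand of a named transcript are called own-name reads. The alignments named 19829 genes, of which 1094 were members (5.52%), and these held 115521 of the 125222 antisense-listed reads. All values come from 1 poly(A)-seq library made from wild-type Col (whole seedlings, 2 weeks old), among 31 samples of the series, so nothing below has a replicate error and no conditions were compared. Total RNA had been cut partially with RNase T1, poly(A)-containing RNA was selected and an adaptor was ligated to the end of the tail. The last base of a trimmed read thus marks only approximately where the transcript stops, since any genomic A before the tail was trimmed with it. An A directly followed the placed read end in 83.9% of the members' antisense-listed reads and in 80.5% of own-name reads of all genes. The 3′-ends below are these last bases, and the transcript itself can stop farther downstream.

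Convergent genes that overlap give pairs called cis-natural antisense transcripts. In Arabidopsis such pairs are known as a source of small interfering RNAs, for example where SRO5 faces the proline-catabolic gene P5CDH under salt stress, and reading from one gene into the next is limited by cleavage and polyadenylation at the 3′-end. A plant poly(A) site is usually preceded by a loosely conserved A-rich element related to AATAAA, and the site itself is spread over several neighbouring bases.

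The genes facing the members were found by converting each read position to genome coordinates of TAIR10.1, using the exon structure of its transcript. The neighbour of a member is the gene on the other strand that held most of its antisense-listed 3′-ends in its span or within 300 nt downstream. The label of convergent pairs fitted most members but not all of them. A convergent overlapping neighbour was found for 844 members (77.1%, 68035 reads) and a convergent neighbour with no annotated overlap for 20 (831 reads). In 86 members the neighbour lay inside the member (39045 reads, 32438 of them under AT2G08665), in 33 the member lay inside the neighbour (3111 reads) and in 17 the pair diverged and overlapped at the 5′-ends (1753 reads). No gene of the read strand lay near the ends of 81 members (2530 reads), and 13 members (216 reads) could not be placed. The 1000 members with a neighbour faced 994 different genes, 964 of them protein-coding.

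The library contained 2786281 reads, of which 4.49% were antisense-listed (95% Clopper-Pearson interval, 4.47 to 4.52%). Intervals for shares cover counting error only, since the reads carry no molecular identifiers and 70.6% of the members' antisense-listed reads repeated the transcript, start and end of another. Green-tissue genes marked the tissue as labelled, with 44197 own-name reads for RBCS1A, 36891 for CAB2 and 32884 for LHB1B2. The root β-glucosidase PYK10 had 2544, and the seed storage genes CRA1 and CRU3 had 0.

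The 30 bases around the most used antisense-listed 3′-end show what kind of site carried these reads, and are given for the members with most reads, for the members without an annotated overlap and for those without a neighbour. Each runs 5′ to 3′ on the strand of the reads in TAIR10.1, the 3′-end is base 25, and capitals mark AATAAA or a hexamer that differs from it by 1 base and starts 10 to 24 nt before that end. The sequences are from the RefSeq TAIR10.1 genome, and an element farther upstream lies outside these windows.
LHB1B2 strand, listed under AT2G08665 and RWA3, chr2:14522591-14522620, minus strand: atagaaatcgaacctctttttctctaactg
LHCB3 strand, listed under ATM2, chr5:22039446-22039475, plus strand: attacaaatcttctatttgctatgcacaga
PYK10 strand, listed under AT3G09250, chr3:2840483-2840512, minus strand: tatAATAAAatgatcctttgtgcctcttct
PSAH2 strand, listed under ROPGEF11, chr1:19455647-19455676, plus strand: aattgcatttcaagtctgctacaacacaca
PSAH-1 strand, listed under ROPGEF13, chr3:5468506-5468535, minus strand: ttacaaAAGAAAtattttttttttcaagag
FNR1 strand, listed under AT5G66180, chr5:26451049-26451078, minus strand: caataccaccaaactactctttctcacttg
AT2G40205 strand, listed under AT2G40200, chr2:16792216-16792245, minus strand: ctcAATTAAtgttaaagcttaatctatcta
AT5G19510 strand, listed under AT5G19500, chr5:6581699-6581728, minus strand: tcaatggttactattccgttgcatcattgt
DGAT3 strand, listed under CHR18, chr1:17848465-17848494, plus strand: aaaaacatctgcaagatacaagcctaacga
COL4 strand, listed under AT5G24940, chr5:8591195-8591224, plus strand: aactatttagAATCAAcaagtttacaaaat
AT4G36550 strand, listed under BEE2, chr4:17245193-17245222, minus strand: ccacaagagtttgattctacaatgtacaaa
no gene on the read strand, listed under AT5G49440, chr5:20048366-20048395, minus strand: atggTATAAAatttaactttttaccaaaaa
no gene on the read strand, listed under RPS15A, chr1:2407912-2407941, plus strand: gatataacaactatgatttgtcagtatttt
no gene on the read strand, listed under AT5G53740, chr5:21814024-21814053, minus strand: gtcgcacggcggtctgacaggttttgtagt

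The members varied widely in their reads. The median was 23.5 antisense-listed reads (quartiles, 14 and 49), 11 members had more than 1000, and the 3 members with most held 39.96% of those of all members. The number of different antisense positions per member had a median of 8 (quartiles, 6 and 13), and ATM2 had 180. These positions were counted per transcript, so an end on several transcripts of a gene counts more than once. On their own strand, where the selection set no minimum, the members had a median of 11 reads (quartiles, 1 and 37.75) and 160722 in all, 44197 of them on RBCS1A, and 233 members had none. The other named genes had a median of 18 own-strand reads (quartiles, 5 and 58, n = 18735), and 686 of them had none. These groups were not selected alike, because a gene without antisense-listed reads was named only if it had an own-strand read. Own-strand reads within an overlap can also be listed under the facing gene. The neighbours had a median of 34 own-name reads (quartiles, 12 and 113, n = 994), against 20 for all genes with an own-name read (quartiles, 6 and 61, n = 18910). This comparison is not independent of the selection, since neighbours were found through reads of their strand listed under members. The neighbours also include 64 with no own-name read, whereas the 18910 genes had at least 1 each.

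At the threshold, SKIP16 (10 antisense-listed and 118 own-strand reads), AT1G06002 (10 and 0), AT1G05523 (10 and 2), AT1G04053 (11 and 1) and AT1G03495 (11 and 0) were just inside. MCCA (9 antisense-listed and 19 own-strand reads), SRS (9 and 13), RING1B (9 and 0), AT1G08310 (9 and 0) and AT1G08727 (9 and 0) were just outside.

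The neighbours of the 3 members with most reads were light-harvesting genes. AT2G08665, a long non-coding RNA (chromosome 2, 14522522 to 14523568, plus strand), spans the whole of LHB1B2, a light-harvesting chlorophyll protein of photosystem II, over 1045 nt. It had 32438 antisense-listed reads and 1 own-strand read, while 32884 reads carried the name of LHB1B2. RWA3, which acts in the O-acetylation of cell wall polysaccharides, overlaps the same gene by only 99 nt (chromosome 2, 14518344 to 14522622, plus strand) and had 5824 antisense-listed and 16 own-strand reads. At the main site of LHB1B2, 72 nt inside its annotated end, 23721 reads were listed under AT2G08665 and 1800 under RWA3, against 24306 under LHB1B2. The 3 names together held 71146 reads of this strand.

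ATM2, a myosin gene (chromosome 5, 22039383 to 22046358, minus strand), overlaps LHCB3, another light-harvesting gene of photosystem II, by 186 nt. It had 7905 antisense-listed reads and 1 own-strand read, against 17797 reads under LHCB3. The ends of LHCB3 were spread: 98 nt inside its annotated end 2486 reads were listed under ATM2 and 3683 under LHCB3. Closer to the end, the order turned, with 849 reads under ATM2 and 401 under LHCB3 at 39 nt inside, whereas deeper at 125 nt the numbers were 1437 under ATM2 and 7775 under LHCB3. Reads listed under ATM2 lie in its exons, so at deeper ends only shorter reads could be listed there.

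Other members faced subunits of photosystem I. ROPGEF11 and ROPGEF13, exchange factors that activate ROP GTPases, had no own-strand read in this library. ROPGEF11 had 1493 antisense-listed reads, against 1113 under PSAH2, and ROPGEF13 had 1326, against 1322 under PSAH-1, both encoding subunit H. AT2G20270, a thioredoxin-family gene, had 871, against 2663 under PSAE-2. Further members faced light-harvesting genes: AT3G27700 had 1068, against 3978 under LHCB2.3, and AT1G15810 had 491, against 9031 under LHCB6. AT5G66180 had 1273, against 1349 under FNR1, the reductase that passes electrons from ferredoxin to NADP. By product names searched after the values had been seen, 17 members faced 16 genes of photosystem or light-harvesting proteins, with 45.9% of the members' antisense-listed reads, 38262 of them at LHB1B2. In comparison, such genes held 19.7% of all own-name reads. When LHB1B2 was left out of both, a choice made after the values were seen, the shares were 19.1% of the members' antisense-listed reads and 18.7% of own-name reads.

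Members facing ribosomal protein genes were more numerous but smaller. They numbered 28 and held 5.93% of the members' antisense-listed reads, whereas ribosomal protein genes held 7.77% of all own-name reads. AT2G40200, a bHLH gene, had 1263 antisense-listed reads and 1 own-strand read, against 1288 under the L41 gene AT2G40205. AT3G15200 had 857 reads, against 1820 under PRPS20, and RIC1, an effector of ROP GTPases, had 522, against 562 under PRPL28.

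Other members among the 25 with most reads faced genes of varied function. AT3G09250 had 1862 antisense-listed reads, against 2544 under PYK10. AT5G19500, a permease gene, had 1101, against 1114 under AT5G19510, an elongation factor gene. IAGLU, which glucosylates the auxin indole-3-acetic acid, had 1058 beside 102 own-strand reads, against 946 under AT4G15545. NFU5, an iron-sulfur scaffold, had 784, against 4419 under AT1G51400. AT4G02880 had 716, against 1812 under the polyubiquitin gene UBQ14. Further members were AT4G16983 (982 antisense-listed reads; neighbour AT4G16980), AT1G50910 (890; GDC1), PGN (645; SVB), AT1G74675 (637; GASA6) and BCA3 (598; AOR), with 400 to 1075 own-name reads on those neighbours. In 9 of the 25 no read lay on the member's own strand, and AT1G16820 was alone in facing a gene with no own-name read.

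**Figure D1:**
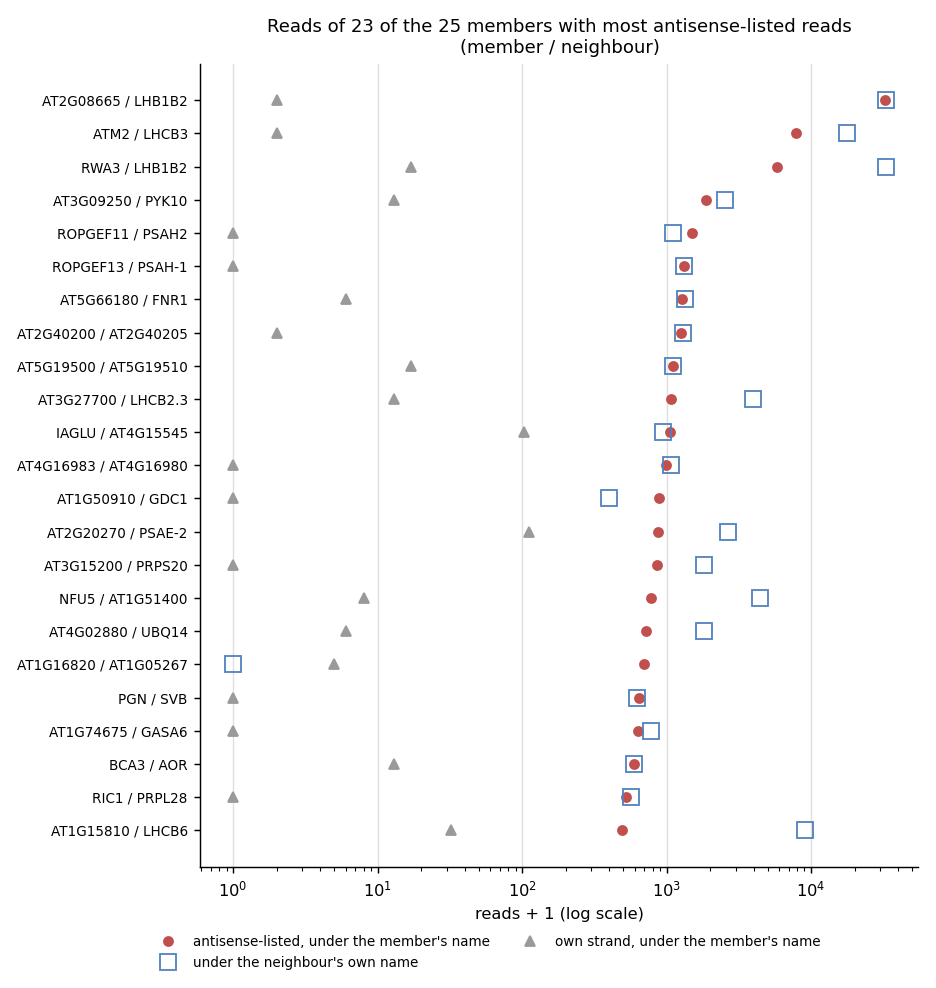
Reads of 23 of the 25 members with most antisense-listed reads, on a log axis of reads + 1, with 1 row per member and its neighbour. Filled circles are antisense-listed reads under the member's name, open squares are reads under the neighbour's own name, and triangles are the member's own-strand reads. Circles and squares lie close together in most rows, as for ROPGEF13 (1326 and 1322 reads), while the triangles lie far to the left.

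The length of the overlap was next related to membership. Among the members in convergent overlapping pairs the annotated overlap had a median of 136.5 nt (quartiles, 84 and 301.25 nt, n = 844), and 133 nt when only exons were counted. All 2685 annotated convergent overlapping pairs had a median of 92 nt (quartiles, 39 and 247 nt), and 733 of them contained a member. Genes were then taken whose partner had at least 20 own-name reads. These leave out the reads listed under the gene and include ends outside the overlap. They are thus only a rough measure of the reads that could be listed. A gene was counted when it was a member through that partner: 572 of 2008 were (28.5%). This share was 8.20% for overlaps of 1 to 50 nt (interval, 6.35 to 10.4%), 29.8% for 51 to 100 nt (25.7 to 34.1%), 51.3% for 101 to 200 nt (45.9 to 56.6%), 45.9% for 201 to 400 nt (39.0 to 52.9%) and 42.3% beyond (35.8 to 49.0%). Partners in the 5 classes had similar median reads, between 50 and 63. The aligned part of the members' antisense-listed reads had a median length of 47 nt, against 59 nt for own-strand reads of all genes. A listed read that ends inside the partner must fit within the overlap. The low share in the shortest class was thus partly set by the alignments.

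**Figure D2:**
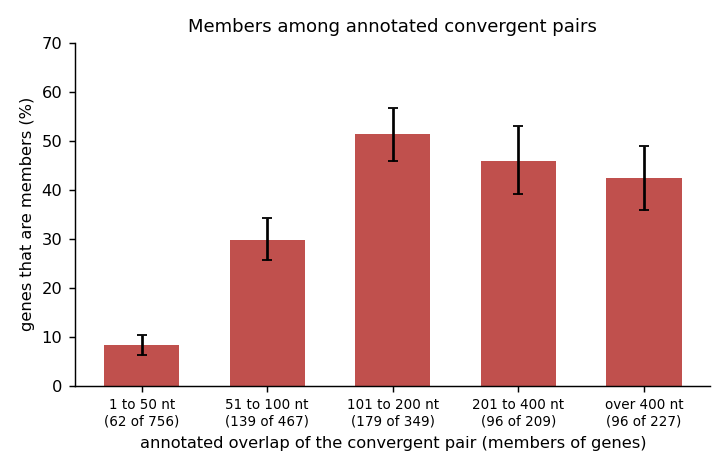
Percentage of genes that were members (y axis) by the annotated overlap with their convergent partner (x axis), for 2008 genes whose partner had at least 20 own-name reads. Bars give the share and error bars the 95% Clopper-Pearson interval. The share was 8.20% in the shortest class and 51.3% at 101 to 200 nt.

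Most antisense-listed reads ended where the neighbour's own-name reads ended. Of the members' placed reads, 97.6% (97.5 to 97.7%) stopped in a gene of their own strand or within 300 nt after it. Of the 112434 reads given to the neighbour, 84.0% stopped at a base also used by its own-name reads, and 87.7% within 5 nt of one. For reads ending inside the neighbour the share was 95.6%. It was 0% for those past its annotated end, where own-name reads cannot lie. With each end base counted once, inside and past together, 50.5% were shared. When a mapping quality of 10 or more was required, the share was 0%, and 98.3% of the reads ended past the annotated end. For 31 members, own-name reads of the neighbour were left out in part or in full. Their transcripts were absent from the annotation or had a read past their end. Without these neighbours the share of 84.0% became 85.1%. In 778 pairs whose neighbour had at least 10 own-name reads, the most used end was the same base in 366 and within 5 nt in 415, with a median gap of 3 nt (quartiles, 0 and 47.5 nt). The own-name and antisense-listed reads of such a pair are different reads of the same library. A read that fitted both genes could be listed under either name, so shared ends are not independent support.

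The question of which name a read received was addressed with the reads that lay entirely in exons of both genes. Per pair, the share listed under the member had a median of 50% (quartiles, 44.0 and 58.3%, n = 625 pairs with at least 20 such reads). It followed the number of transcripts: for each read, the annotated transcripts of the member that contain it were divided by those of both genes. Over 190427 reads, 50.3% were listed under the member and the transcript numbers gave 50.3%. Where the transcript share was below 40%, the listed share had a median of 33.1% (n = 106). It was 50% where that share was 40 to 60% (n = 399) and 68.2% where it was 60% or more (n = 120). The interval of the listed share contained the transcript share in 597 of the 625 pairs, and the median difference was 0.20 percentage points (quartiles, -3.25 and 3.88).

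Single pairs showed the same. Under AT2G08665 and LHB1B2, with 1 transcript each, 49.6% of 65207 shared reads were listed under the member (49.2 to 49.95%). Under ATM2, with 2 transcripts, against LHCB3, with 1, the share was 66.3% (65.4 to 67.1%), beside a transcript share of 66.4%. AT3G27700 and LHCB2.3 gave 32.5% (30.9 to 34.1%) beside 33.3%, and AT4G02880 and UBQ14 gave 26.2% (24.4 to 27.9%) beside 24.5%. AT1G50910 and GDC1 gave 67.8% (65.1 to 70.4%) beside 66.3%. Among the 24 members of the 25 with shared reads, IAGLU (52.8%, 50.5 to 55.0%) had an interval just above the transcript share of 50%, as AT2G08665 had one just below it.

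**Figure D3:**
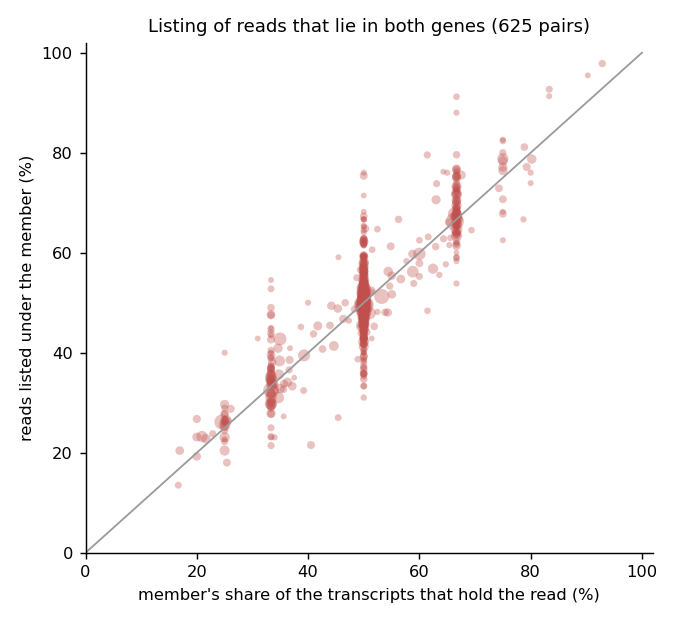
Share of reads listed under the member (y axis, %) against the member's share of the transcripts that contain the read (x axis, %), for 625 pairs with at least 20 reads lying in both genes. Each point is a pair, larger points have more reads, and the line marks equality. Points gather on the line, for instance ATM2 with LHCB3 at 66.3% and 66.4%.

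The mapping quality, a score that drops when a read fits several transcripts equally well, separated these reads from the rest. It was 0 or 1 for 98301 of the 98336 reads that fitted a transcript of the neighbour as well. For reads that fitted 1 transcript of the member and none of the neighbour it was 0 or 1 in 8.73% (8.21 to 9.28%, n = 10740), but it was 0 or 1 in 99.7% of those that fitted several transcripts of the member and none of the neighbour (n = 3358). Overall 89.6% of the members' antisense-listed reads had such a score, against 40.8% of own-strand reads of all genes. With a score of at least 10 required, 305 genes were members, of which 206 had a convergent overlapping neighbour.

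A smaller set of antisense-listed reads ended beyond the annotated end of the neighbour, at places contained in no transcript of it. They made up 12.1% of the reads given to neighbours (11.96 to 12.3%, 13660 reads), or 16.9% without AT2G08665, and 18.3% when identical reads were counted once. The share was 98.3% when a mapping quality of 10 or more was required. Of these, 68.3% (67.5 to 69.1%) had a mapping quality of 10 or more. Their median distance past the annotated end was 25 nt (quartiles, 8 and 65 nt). At least 10 such reads were found in 331 members, and in 157 of these they outnumbered all own-name reads of the neighbour, which were 0 in 51. Own-name reads cannot lie past the end of their transcript in these alignments, so a name of the opposite gene is the one under which such ends were seen.

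NFU5 was an example with a highly expressed neighbour. The most used ends listed under it lay 14 and 13 nt past the end of AT1G51400, a photosystem II protein, with 240 and 176 reads, and 481 of its 784 reads ended past that gene. Under AT3G15200, 291 of 857 reads ended past PRPS20, with 191 at 29 nt. Under AT3G09250, 248 ended past PYK10, with 160 at a separate site 61 nt beyond its annotated end, whereas its main end, 11 nt inside, had 666 reads, against 933 under PYK10. Under ROPGEF11 the most used end lay 3 nt past PSAH2, with 275 reads. CNGC8, a cyclic nucleotide-gated channel gene, had 176 of 180 reads past PUP14, a purine permease gene that itself had 10 own-name reads, and EDL1 had 115 of 119 past CLPB3, a plastid chaperone gene with 11.

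**Figure D4:**
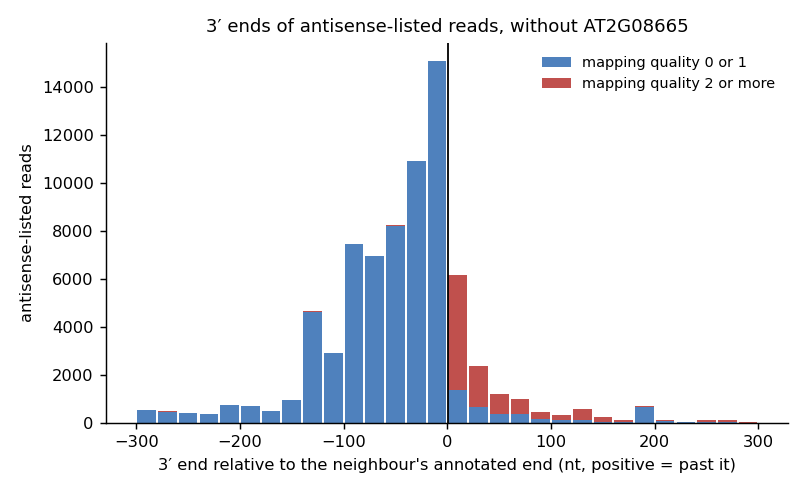
Distance of antisense-listed 3′-ends from the annotated end of the neighbour (x axis, nt, bins of 20 nt, positive values past the end) and number of reads (y axis), without AT2G08665. Blue marks reads with a mapping quality of 0 or 1 and red marks higher scores, and 5617 of 79996 reads that ended 300 nt or more inside the neighbour are not drawn. In the first bin past the end 4799 of the reads had a higher score, against 3 in the last bin before it.

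The members without an annotated overlap fell in the same class by their position. Reads listed under them lie in their exons, so none could end inside the neighbour. CHR18, a chromatin remodelling gene, lies 82 nt from DGAT3, a diacylglycerol acyltransferase gene, and had 331 antisense-listed reads, all past the annotated end of DGAT3, while DGAT3 had 1 own-name read. The site was broad, with 75, 67, 61 and 43 reads at 151, 126, 138 and 145 nt. AT5G24940, a protein phosphatase gene, lies 193 nt from COL4, a CONSTANS-like gene, and had 103 reads, of which 61 ended 270 nt past COL4. Both had low-scoring shares of under 7% (6.95% and 5.83%). BEE2, a bHLH gene of the brassinosteroid response, had 76 reads towards AT4G36550 across 103 nt, and all of them had a low score. AT2G37975 had 65 reads towards SOUL-1 across 30 nt and AT5G08760 had 52 towards AT5G08770 across 20 nt. COL4, AT4G36550, SOUL-1 and AT5G08770 had no own-name read. MMD1 (23 reads), AT4G37820 (23) and AT4G38930 (16) completed the 8 with most reads, with neighbours CMPG1, AT4G37830 and AT4G38932 at 36, 1467 and 196 own-name reads.

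Where both strands were read, the most used ends overlapped less than the annotated ends in most members. For the neighbour's strand, the end was the most used one among the reads listed under the member, which lie in the member's exons. It can therefore differ from the neighbour's most used own-name end, which was the same base in 366 of 778 pairs. In 470 convergent members with at least 10 own reads, the most used ends of the 2 strands overlapped by a median of 20 nt (interval of the median, 13 to 24 nt; quartiles, -30.75 and 58.75 nt), against 127 nt between the annotated ends of the same pairs (118 to 138 nt). The most used ends overlapped in 299 of the 470, by at least 100 nt in 53, and stopped at least 100 nt short of each other in 66. Over all 569 members with at least 10 own reads the median was 24 nt, and 55.5 nt when a mapping quality of at least 10 was required, where the annotated overlap of convergent members was 103 nt. In 430 of the 470 the overlap between used ends was shorter than the annotated one. Own-name reads cannot lie past the end of their transcript, so the member's used end could only lie at or inside its annotated end. A shorter overlap between used ends was thus partly set in advance. Negative values are gaps: the overlap between used ends was -383 nt for AT3G27700 and LHCB2.3, against 595 nt annotated. AT3G09250 and PYK10 kept 96 of 138 nt, AT5G19500 and AT5G19510 kept 84 of 288 nt and IAGLU and AT4G15545 kept 19 of 210 nt.

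**Figure D5:**
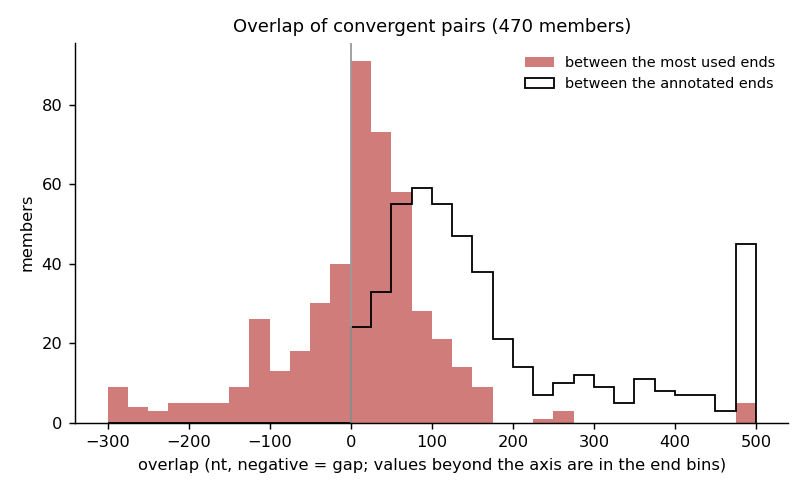
Overlap between the 2 strands in 470 convergent members with at least 10 own reads (x axis, nt, bins of 25 nt, negative values are gaps, values beyond the axis are in the end bins) and number of members (y axis). Filled bars use the most used 3′-end of the member's own-strand reads and that of its antisense-listed reads. The black outline uses the annotated ends. The filled bars have a median of 20 nt and the outline one of 127 nt.

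Listing in both directions was found in 114 pairs, where each gene was a member facing the other, and 111 of these were convergent and overlapping. The annotated overlap of the 111 had a median of 131 nt (quartiles, 95 and 203 nt) and the overlap between used ends one of 34 nt (quartiles, 6.5 and 71.5 nt, n = 195 genes with at least 10 own reads). Only 1 pair had at least 100 antisense-listed reads on each side: AT5G51010, a rubredoxin-like gene, had 249 and CRL, a gene of plastid division, had 117, beside own-strand reads of 121 on AT5G51010 and 213 on CRL. Their used ends overlapped by 45 of the annotated 355 nt. YKT61, a SNARE gene, had 139 and TIL, a temperature-induced lipocalin gene, had 93, beside 204 and 1896 own-strand reads. The overlap between their used ends was -37 nt, a gap.

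Of the non-coding members, 80 were long non-coding RNAs and 1 was annotated as antisense RNA. They held 38072 antisense-listed reads, or 5634 without AT2G08665, against 323 own-strand reads. No own-strand read was found for 42 of the 81 and at least 10 for 11. The annotation notes a natural antisense relation for 72, and in 68 of these the noted gene was the neighbour found here. Beside AT2G08665, non-coding members with many reads were AT2G09785, inside UBQ6 (469 antisense-listed and 0 own-strand reads), AT4G20362, over the plastid elongation factor gene RABE1b (313 and 10), and AT3G52072, around AT3G52070 (305 and 0).

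A list of 12 Arabidopsis genes known for antisense transcripts or facing pairs held 3 members. SRO5 had 92 antisense-listed and 31 own-strand reads, and its partner P5CDH, annotated as ALDH12A1, had 16 and 44. They are annotated to overlap by 905 nt (chromosome 5, 25097944 to 25099907 for SRO5 and 25099003 to 25103312 for P5CDH). The P5CDH strand stopped mainly 512 nt inside its annotated end, with 72 reads under SRO5 and 32 under P5CDH, which left a gap of 38 nt to the main own-name end of SRO5. The ends of SRO5 were few and spread, and by the most used end listed under P5CDH (7 reads, beside 8 under SRO5) the strands overlapped by 64 nt. Of the shared reads on that strand, 68.1% were listed under SRO5 (59.6 to 75.9%), beside a transcript share of 66.7%. PPRL (AT4G35850), which encodes a pentatricopeptide repeat protein, had 41 antisense-listed and 63 own-strand reads, and its partner ATGB2, annotated as GB2, had 7 and 59 and was thus below the threshold. Here 47.7% of 86 shared reads were listed under PPRL (36.8 to 58.7%), above the transcript share of 33.3%. The other 8 genes, FLC, DOG1, CDF5 (AT1G69570), FLORE (AT1G69572), KPL, ARI14, CBF1 and CBF3 (DREB1A), had 0 antisense-listed reads, which allows up to 3, and 0 to 23 own-strand reads, so that a low level was not detectable at this depth.

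The sequence before the 3′-end was examined for AATAAA or a hexamer with 1 base changed, starting 10 to 40 nt upstream. It was present for 31.9% of the members' antisense-listed reads (31.6 to 32.2%), against 44.6% of own-strand reads of all genes (44.6 to 44.7%). AT2G08665, whose reads ended mainly at the LHB1B2 site printed above, had the hexamer for 0.0062% of its reads. Without this member the share was 44.4% (44.0 to 44.7%). The own-strand share still included the 32884 own-name reads of LHB1B2, so the 2 shares are not matched in this respect. Counting each end base once gave 44.0% (43.1 to 44.9%) for the members, against 40.7% (40.4 to 40.9%) for all own-strand ends. Single members covered the whole range, with 97.7% for AT5G19500 and 92.1% for AT2G40200, whereas RWA3 had 2.61% and ATM2 had 9.82%. Unchanged AATAAA preceded 7.001% of the antisense-listed reads, against 10.04% of own-strand reads.

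A stretch rich in A in the genome just after the end, taken as 6 A in a row or 7 of the next 10 bases, was found for 6.89% of the antisense-listed reads (6.74 to 7.03%), against 6.13% of own-strand reads (6.10 to 6.16%), and for 9.58% without AT2G08665. The share was 12.6% at a mapping quality of at least 10, and 0.683% when 8 A in a row or 9 of 10 were required. The share was 32.2% under ATM2 and 39.5% under RIC1. For the 2776 reads that stopped in no gene of their strand it was 26.5% (24.9 to 28.2%), but AT5G49440 held many of these. It was 15.5% without that member (14.1 to 17.1%), a choice made after the values were seen, and 11.6% with each end base counted once (9.32 to 14.3%). Whether such reads were primed or trimmed within genomic A was not tested.

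No gene of the read strand was found for 81 placed members. Of their 2530 antisense-listed reads, 73.7% had a mapping quality of at least 10 (71.9 to 75.4%), and 89.7% of the 2465 that could be searched occurred once in the genome. The nearest gene upstream on the read strand lay a median of 3808 nt away (quartiles, 2015 and 6165 nt), and in 31 it lay more than 5000 nt away. AT5G49440, an uncharacterised gene, led with 403 antisense-listed and 2 own-strand reads. At 1 base it had 353 of them, and an A-rich stretch followed 91.3% of its reads. AT3G05945, a non-coding gene, had 112 and 0, with 95 at 1 base and an A-rich stretch after 92.0%. In contrast, RPS15A, a ribosomal protein gene with 143 antisense-listed and 769 own-strand reads, had 25 antisense positions, counted per transcript. Its most used end had 42 reads, and no A-rich stretch or signal hexamer was found for its reads. AT5G53740 (121 antisense-listed and 0 own-strand reads), AT5G65520 (114 and 21), MUM2, a β-galactosidase gene of seed mucilage (74 and 30), AT4G33610 (69 and 0) and AT1G07373 (62 and 0) completed the 8 with most reads.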

How the data were processed

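Poly(A)-seq of Col was analysed, 1 library among 31 samples, and the others were not analysed here. Per the study's methods, the authors trimmed the tails and aligned the reads to the TAIR10 genome with Bowtie2, and the supplement lists uniquely mapped reads. The deposited alignments differ from this description, since they name transcripts and include many reads with a mapping quality of 0 or 1. The deposited alignments give, for each read, a start and an end position in a named transcript and a mapping quality score from 0 to 42. Reads were put on TAIR10.1 through the exons of that transcript. The build of the transcript sequences is not given in the sources used here, and 433 transcripts absent from the annotation (19281 reads) and 138 with a read past their end (13598 reads) were left out, which left 2753402 reads. For minus-strand reads the start position is the 3′-end. Shares have 95% Clopper-Pearson intervals, medians have intervals from order statistics, and with 1 library no test was made. Members, gene lists and named genes (the 25 members with most reads, the 8 with most among those without an annotated overlap and among those without a neighbour, 5 genes on each side of the threshold, and the list of known loci) were chosen with earlier results of these data known. Of the 25 members, 2 are not reported by name here. CRL, YKT61, CNGC8, EDL1, the non-coding members after the first and the product-name groups were chosen after their values were seen. Placement and gene search were tested on simulated data (2000 of 2000 and 300 of 300 recovered). Python 3.11.15, numpy 2.4.6, pandas 2.3.3, scipy 1.17.1 and intervaltree 3.1.0 were used. Alternatives covered mapping quality, identical reads, the read minimum, the extension, the member with most reads and the definitions of signal, A-rich stretch and shared end.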

Additional observations from a re-analysis of the deposited data

Results flagged for a closer look

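For 13 members no read could be placed, and their 216 antisense-listed reads were outside every result that needed a genome position. They remained in the counts of members, reads and mapping quality. They included AT4G14700 (29 reads), AT3G04550 (28) and AT4G33585 (23), and the chloroplast gene ATCG01130 (15) and the mitochondrial gene ATMG00513 (10). Another 15 reads of members on transcripts that could not be placed were left out as well.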

How the results depend on the processing

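Of 71 alternative values for 10 results, 48 moved by more than their interval or, for counts, by over 1.5 times, and 23 did not. Only the used-end overlap could change sign, and it did not. With a mapping quality of at least 10, 305 genes were members, 206 of them with a convergent overlapping neighbour at a median overlap of 103 nt. The share of reads in or after a gene of their strand was then 80.9%, past the neighbour's end 98.3%, at a shared end 0%, with the signal 44.3% and before an A-rich stretch 12.6%, the median share listed under the member was 100% and the median used-end overlap was 55.5 nt. With identical reads counted once, 796 genes were members, 622 of them convergent and overlapping, the overlap was 153.5 nt and those 5 shares were 96.7, 18.3, 72.1, 45.3 and 7.19%. A minimum of 20 reads gave 644 members, 500 of them convergent and overlapping, an overlap of 154.5 nt, 98.1% in or after a gene, 10.9% past the end, 85.8% at a shared end and 30.9% with the signal. A minimum of 50 gave 271 members, 208 of them convergent and overlapping, an overlap of 173.5 nt, and shares of 98.8, 8.997, 88.6 and 28.7%, with 6.40% before an A-rich stretch. With no downstream extension, 85.8% of reads lay in a gene, 95.6% of those given to the neighbour were at a shared end and the median share listed under the member was 41.7%. With an extension of 1000 nt, 97.8% lay in or after a gene, 12.4% past the end and 83.8% at a shared end. Without AT2G08665 the shares were 96.6% in or after a gene, 16.9% past the end, 77.7% at a shared end, 44.4% with the signal and 9.58% before an A-rich stretch. Counting each end base once gave 93.7% in or after a gene, 50.5% at a shared end and 44.0% with the signal. AATAAA without change gave 7.001%, a tolerance of 5 nt for a shared end gave 87.7%, and 8 A in a row or 9 of 10 gave 0.683%. The share past the end was not run with no extension, where it is 0 by construction. No paired analysis was possible because a single poly(A)-seq sample has nothing to pair with.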
